A study of Mus musculus with 4 samples.

Results

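The subunits described here are 9 genes that encode the core and closely bound proteins of the Polycomb repressive complexes PRC1 and PRC2, namely Ezh2, Ezh1, Eed, Suz12 and Jarid2 of PRC2 and Bmi1, Ring1, Rnf2 and Cbx7 of PRC1. They are 9 of the 18193 genes named on the array. They were taken by gene symbol, and every probe set that the platform annotation assigns to one of them was read, which gave 27 probe sets. The rule reads gene symbols alone. Of the 27 probe sets, 20 passed the filter on low signals and were tested, and 7 did not and have no test.

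Polycomb proteins keep genes silent through marks on histones. PRC2 methylates a lysine in the tail of histone H3 through the catalytic subunit Ezh2 or its paralog Ezh1, which work only in a complex with Eed and Suz12, and Jarid2 helps bring the complex to its sites. PRC1 attaches ubiquitin to histone H2A through the RING finger ligases Ring1 and Rnf2, is shaped by Bmi1, and can bind the methylated H3 tail through Cbx proteins such as Cbx7. In blood, Bmi1 is required for the self-renewal of hematopoietic stem cells and of leukemic cells, in part by holding the cell cycle inhibitor locus Cdkn2a silent, and Ezh2 is known as the form of dividing cells while Ezh1 is relatively more used in resting ones.

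The study compared mouse bone marrow in 2 groups of 2 arrays, which its design text describes as biological replicates. The MN1 leukemic arrays hold bone marrow cells of mice with leukemia driven by MN1, a coregulator of transcription that some human acute myeloid leukemias overexpress. Per the labels, MN1 was brought by viral producer cells into C57BL/6J marrow that had been taken 4 days after 150 mg/kg 5-fluorouracil and stimulated for 48 hours with interleukin-6, interleukin-3 and stem cell factor. Cells carrying the green fluorescent marker were sorted and injected into syngeneic recipients irradiated with 750 cGy. The Gr1/Mac1 arrays hold marrow cells of healthy C57BL/6J mice positive for Gr1 and CD11b (Mac1), the surface antigens of granulocytes and monocytes. They are called mature here as a short name only, since the labels do not give their stage. The proliferation marker Mki67 read 13746 and 11422 in them, against 15597 and 13553 in the leukemic arrays. Of 20 tested cell cycle genes, 14 were not called between the groups and 6 were higher in the leukemic arrays. No age is given in the sources used here. The labels name no sort of the leukemic marrow, so normal cells of the recipient may be among its cells. No array is of normal immature cells alone, so what belongs to leukemia and what to immaturity cannot be told apart. In such bulk RNA, fewer cells of a type and less RNA per cell cannot be told apart either.

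The promoters of Ezh2, Bmi1, Ring1 and Ezh1 are shown first so that the start regions of these genes can be compared. Signals of Ezh2, Bmi1 and Ring1 were higher in leukemic marrow as deposited, and that of Ezh1 was lower at its brightest probe set. RefSeq promoter windows on build GRCm38.p6 were found for all 9 genes, with 10 windows in all. Each window printed here runs from 250 bases before the start site to 30 bases after it, 5′ to 3′ on the gene's own strand. Capitals mark the letters of a searched motif on either strand. The Ezh2 window lies at chr6:47595001-47595280 on the minus strand, the Ezh1 window at chr11:101226434-101226713 on the minus strand, the Bmi1 window at chr2:18676768-18677047 on the plus strand and the Ring1 window at chr17:34024651-34024930 on the minus strand.
Ezh2: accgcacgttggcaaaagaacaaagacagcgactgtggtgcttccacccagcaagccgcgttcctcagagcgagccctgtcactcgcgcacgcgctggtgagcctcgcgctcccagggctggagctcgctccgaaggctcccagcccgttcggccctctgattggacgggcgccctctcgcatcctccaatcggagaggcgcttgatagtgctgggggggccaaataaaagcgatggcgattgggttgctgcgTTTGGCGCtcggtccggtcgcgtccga
Ezh1: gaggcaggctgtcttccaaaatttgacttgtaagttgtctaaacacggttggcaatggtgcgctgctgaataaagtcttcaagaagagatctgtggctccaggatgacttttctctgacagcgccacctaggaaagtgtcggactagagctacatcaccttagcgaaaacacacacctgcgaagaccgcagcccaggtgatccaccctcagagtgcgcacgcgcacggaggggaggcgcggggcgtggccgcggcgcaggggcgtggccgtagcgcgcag
Bmi1: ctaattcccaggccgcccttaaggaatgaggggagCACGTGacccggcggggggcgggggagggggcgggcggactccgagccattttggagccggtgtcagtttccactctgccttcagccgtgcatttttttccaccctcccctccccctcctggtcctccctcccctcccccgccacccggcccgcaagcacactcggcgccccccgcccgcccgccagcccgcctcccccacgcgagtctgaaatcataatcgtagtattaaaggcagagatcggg
Ring1: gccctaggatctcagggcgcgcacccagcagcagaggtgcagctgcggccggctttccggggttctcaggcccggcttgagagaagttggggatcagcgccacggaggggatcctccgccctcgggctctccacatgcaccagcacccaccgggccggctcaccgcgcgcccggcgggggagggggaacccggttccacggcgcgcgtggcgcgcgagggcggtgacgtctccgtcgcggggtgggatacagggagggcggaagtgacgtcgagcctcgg
The motifs searched, on both strands, were TTTGGCGC and TTTCCCGC, forms of the site bound by E2F factors, and CACGTG, the E-box bound by MYC and related factors. None of them overlapped another in these windows. The Ezh2 window held TTTGGCGC at bases 4 to 11 after the start, the Bmi1 window held CACGTG 215 bases before it, and the Suz12 window, which is not printed, held TTTCCCGC 219 bases before it. The other windows of the 9 genes held none of these letters. Among 32851 promoters of the same length, 0.469% held TTTGGCGC, 1.01% held TTTCCCGC and 6.79% held CACGTG. A match describes the letters of the window and is neither a bound site nor a cause.

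Values are MAS5 signals, a linear brightness per probe set that the authors had scaled to the same mean in each array. Tests used log2(signal + 16), and a log2 fold change is MN1 leukemic minus Gr1/Mac1 on that scale, which understates changes of dim probe sets. A probe set was called at a limma adjusted p (Benjamini-Hochberg, over all 27022 probe sets tested) under 0.05, and intervals are 95% confidence intervals. The groups were far apart over the whole array: 9428 probe sets (34.9%) were called, 5742 (21.2%) higher and 3686 (13.6%) lower in the leukemic arrays, and the median log2 fold change was 0.19. Taking only the brightest probe set of each gene, 5089 of 12378 (41.1%) were called, 26.1% higher and 15% lower, with a median of 0.28. The split between higher and lower rests on the scaling. Of the calls, 60.9% were higher as deposited, 51.4% after quantile normalization and 45.0% with equal array medians. With hybridization control scaling, which multiplies both arrays of a group by a common factor from these controls, 11.6% were higher. The subunits are therefore also given relative to the median of all probe sets. The ratio of 3′ to 5′ signal of the Actb control was 3.09 to 3.28 in leukemic and 1.32 to 1.39 in mature arrays, that of Gapdh was 3.68 to 3.94 against 1.82 to 2.18, and the hybridization controls read 8950 to 11918 against 4044 to 4168. These measures moved with the groups, and their part in the results was not tested. Mature replicate 2 also stood apart, with Xist at 114 and the Y-linked Eif2s3y at 4409, against Xist of 7138 to 19642 and Eif2s3y of 2.51 to 3.01 in the other 3 arrays.

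Among the Polycomb subunits, Bmi1, Ezh2 and Ring1 had higher signals in leukemic marrow. Of the 2 tested Ezh1 probe sets, only the brightest was lower. The second tested Ezh1 probe set had a log2 fold change of 0.62 and was not called. With hybridization control scaling the call of Ezh2 was lost (0.10) and the sign of Ring1 turned. Eed, Jarid2, Rnf2 and Cbx7 had no called probe set, and Suz12 had 1 dim one of 6. Of the 20 tested probe sets, 6 were called (30%), 5 of them higher (25%) and 1 lower, and 14 were not called. These shares lie near the 34.9% and 21.2% of all probe sets, so the counts do not set the subunits apart from the rest of the array. The groups' arrays did not overlap at 13 of the 20, against 70% of all probe sets. The median log2 fold change of the 20 was 0.41. Read from the brightest probe set, 3 genes were called higher, 1 lower and 5 not, with a median of 0.21. Without leukemic replicate 1 the counts were 3 higher and 0 lower, and without leukemic replicate 2 they were 2 and 0, beside 5219 and 3470 called probe sets over the whole array.

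**Figure D1:**
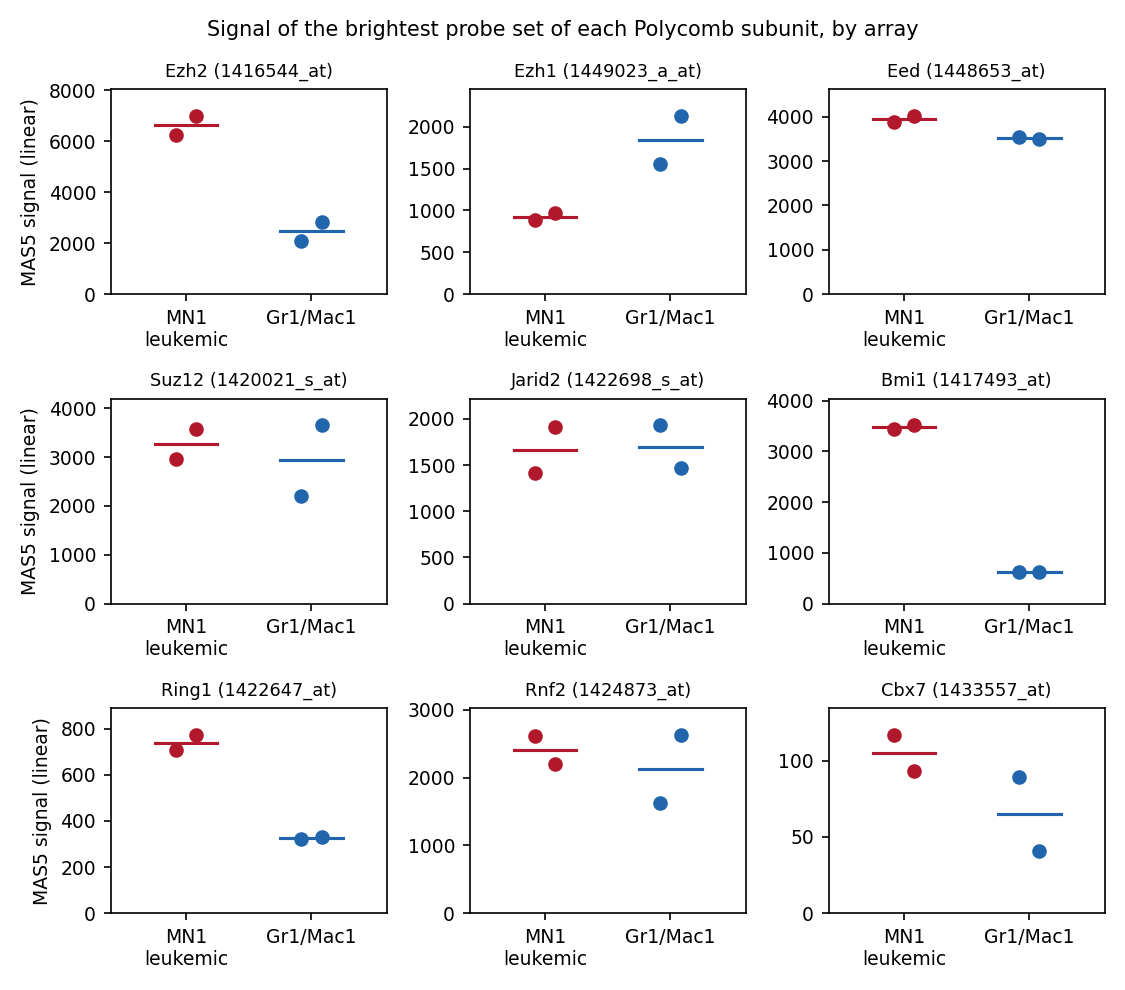
MAS5 signal (linear, y axes starting at 0) of the brightest probe set of each of the 9 Polycomb subunits, with 1 point per array (replicate 1 left, replicate 2 right) and a bar at the mean of each group of 2 arrays. The leukemic points (red) lie above both mature points (blue) for Ezh2, Bmi1 and Ring1, narrowly above for Eed and Cbx7, below them for Ezh1, and among them for Suz12, Jarid2 and Rnf2; the sign of Ring1 and Eed turns when arrays are scaled to the hybridization controls, as does that of Cbx7.

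Ezh2, the main histone H3 methyltransferase of PRC2, has a single probe set on the array. Its signal was 6239 and 7003 in the leukemic against 2097 and 2845 in the mature arrays. Both leukemic arrays lay well above both mature arrays, and the linear ratio of the means was 2.68. The log2 fold change was 1.43 (SE 0.26, interval 0.82 to 2.04, limma adjusted p = 0.0062). The call was lost without leukemic replicate 2 (log2 fold change 1.35, limma adjusted p = 0.065) and with hybridization control scaling (0.10, limma adjusted p = 0.75), where the median of all probe sets was -1.07. The adjusted p ranged from 0.0016 to 0.75 over 17 alternatives. Relative to the median of all probe sets, Ezh2 was higher by 1.24 as deposited. The value of 1.17 with hybridization control scaling is no further support, since that scaling moves a gene and the median nearly alike.

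Ezh1, the paralog with weaker methyltransferase activity, went the other way at its brightest probe set, 1449023_a_at. The signal was 890.4 and 964 in the leukemic against 1551 and 2131 in the mature arrays. The leukemic arrays were both below the mature ones, and the mature mean was 1.99 times the leukemic mean. The log2 fold change was -0.96 (SE 0.26, interval -1.59 to -0.33, limma adjusted p = 0.029). The second tested probe set, 1418290_a_at, read 123 and 113 in the leukemic against 34.6 and 135 in the mature arrays, so the groups overlapped. Its log2 fold change was 0.62 (interval -0.76 to 1.99, limma adjusted p = 0.45), and the mean of both probe sets gave -0.17 (limma adjusted p = 0.74). The remaining Ezh1 probe sets, 1429629_at and 1429630_at, had mean signals of 30.3 and 21.6 and were not tested. The first read 15.4 and 14.8 in the leukemic against 54.4 and 36.6 in the mature arrays. The second read 10.1 and 31.0 against 9.65 and 35.7. The lower call of 1449023_a_at was also lost without a variance trend (limma adjusted p = 0.071), without leukemic replicate 1 (-0.90, limma adjusted p = 0.17), without leukemic replicate 2 (-1.02, limma adjusted p = 0.15) and without mature replicate 2 (-0.73, limma adjusted p = 0.052). Over 16 alternatives its adjusted p ranged from 7.7e-04 to 0.74.

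The balance between both catalytic paralogs was compared within each array, as the log2 difference of Ezh2 minus Ezh1. Since the probes differ, the size of such a difference is not a ratio of transcripts, and only its change between groups is read. The difference was 2.79 and 2.84 in the leukemic against 0.43 and 0.41 in the mature arrays. Replicates lay far closer together than the groups, which were 2.39 apart. Scaling, pseudocount and leaving out each array kept this between 2.34 and 2.64. A factor common to an array cancels in such a difference, and the pseudocount hardly moves bright signals, so alternatives of these kinds could hardly change it. The size depends on the Ezh1 probe set that is read. With the other tested Ezh1 probe set, 1418290_a_at, an alternative chosen after seeing the data, the groups were 0.81 apart. The difference there was 5.49 and 5.77 in leukemic and 5.39 and 4.25 in mature arrays. An exact two-sided permutation test over 2 against 2 arrays gave p = 0.33, the smallest it can give, and 0.33 after adjustment over the 3 paralog pairs compared.

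Of the scaffold subunits of PRC2, Eed had no call and Suz12 had 1 of its 6 tested probe sets called. Eed, which binds the methylated H3 tail and stimulates the enzyme, read 3890.4 and 4020.2 in the leukemic against 3534 and 3493 in the mature arrays at 1448653_at. The leukemic arrays were slightly above both mature arrays, and the log2 fold change of 0.17 (interval -0.37 to 0.71, limma adjusted p = 0.60) was close to the median of all probe sets. The second Eed probe set had a mean signal of 31.5 and was not tested.

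Suz12, the subunit that holds the PRC2 core together, had 6 tested probe sets, all with positive log2 fold changes, from 0.19 to 1.78. The brightest, 1420021_s_at, read 2955 and 3565 in the leukemic against 2213 and 3651 in the mature arrays, with a log2 fold change of 0.19 (interval -0.53 to 0.91, limma adjusted p = 0.67). Here the mature arrays lay on both sides of the leukemic ones. The same pattern was seen at 1427253_s_at, which read 1568 and 1293 against 906 and 1677. At 1452364_at the signals were 791 and 633 against 361 and 503, with no overlap and a log2 fold change of 0.71 (interval 0.01 to 1.41, limma adjusted p = 0.11). Only the dimmest, 1420020_at, was called, with 116 and 89.4 in the leukemic against 14.9 and 22.0 in the mature arrays (log2 fold change 1.78, SE 0.51, interval 0.58 to 2.98, limma adjusted p = 0.033). Its mature mean of 18.5 lay under the lowest mean kept by the filter, 47.6, so it passed only through the leukemic arrays, and its fold change ran from 1.01 to 2.42 with the pseudocount. That call was lost without leukemic replicate 1 (limma adjusted p = 0.20), without leukemic replicate 2 (0.14), without mature replicate 1 (0.056), with no filter on low signals (0.062) and with a replicate block (0.0502), and its adjusted p over 13 alternatives ranged from 0.014 to 0.20. Without mature replicate 2 the log2 fold changes were 0.94 at 1452364_at and 1.81 at 1420022_s_at. The dim 1420022_s_at read 81.2 and 109 in the leukemic against 15.4 and 49.0 in the mature arrays. Its mature mean of 32.2 also lay under 47.6, so it too passed the filter only through the leukemic arrays.

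Jarid2, which recruits PRC2 to its targets, had 3 tested probe sets and none was called. The brightest, 1422698_s_at, read 1418 and 1910 in the leukemic against 1932 and 1465 in the mature arrays, and the groups overlapped (log2 fold change -0.03, interval -0.69 to 0.62, limma adjusted p = 0.94). At 1422697_s_at the signals were 985 and 1086 against 1945 and 1390. The leukemic arrays lay below both mature ones there, with a log2 fold change of -0.66 (interval -1.30 to -0.03, limma adjusted p = 0.099), and without mature replicate 2 it passed the threshold (-0.90, limma adjusted p = 0.028). The dim 1450710_at overlapped between groups, with 44.9 and 162 against 202 and 126.

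**Figure D2:**
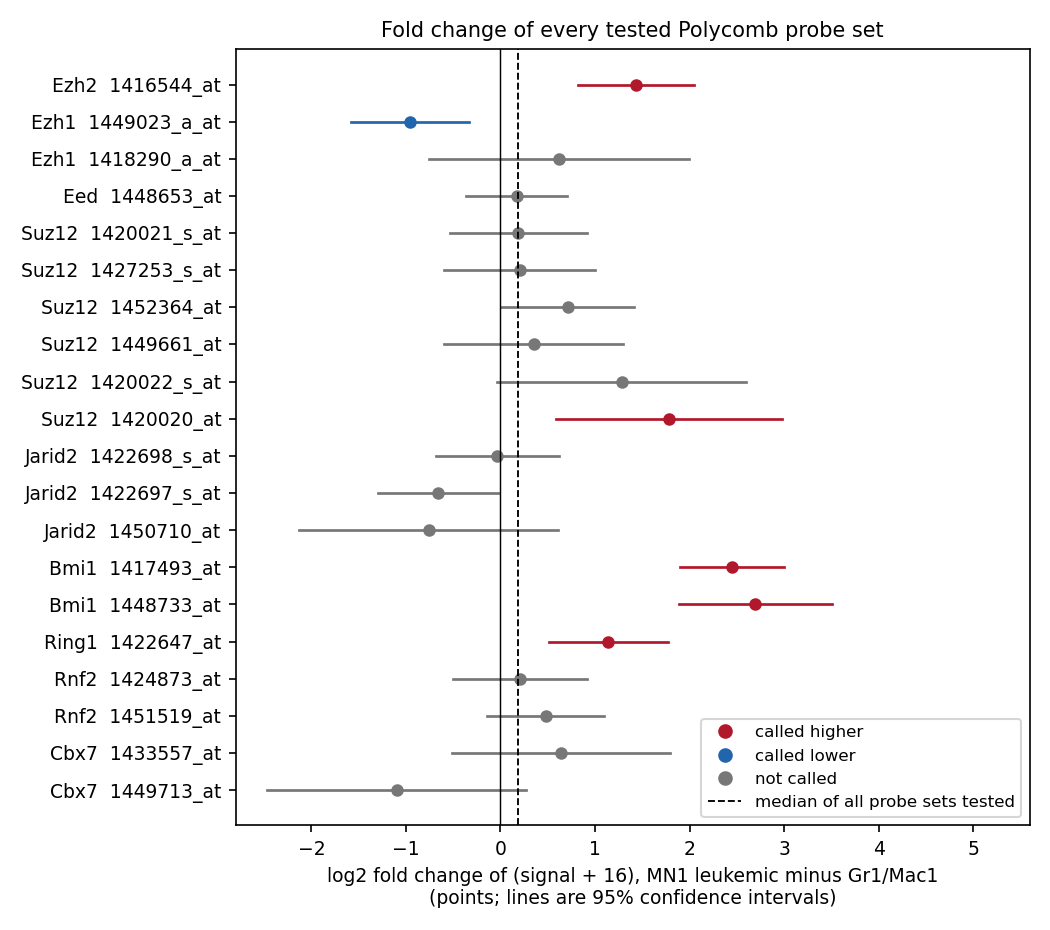
Log2 fold change of log2(signal + 16), MN1 leukemic minus Gr1/Mac1, of the 20 tested Polycomb probe sets (points) with 95% confidence intervals (lines), from limma on 2 arrays per group. The 5 probe sets called higher (red) belong to Ezh2, Suz12, Bmi1 (both probe sets) and Ring1, the 1 called lower (blue) to Ezh1, and the dashed line marks the median of all probe sets tested, 0.19.

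Bmi1, the PRC1 subunit tied to self-renewal, had the largest difference among the subunits, and both of its probe sets were called. At 1417493_at the signal was 3445 and 3515 in the leukemic against 626 and 624 in the mature arrays. Replicates were nearly equal in each group, and the leukemic mean was 5.57 times the mature mean. The log2 fold change was 2.45 (SE 0.23, interval 1.90 to 2.995, limma adjusted p = 8.5e-04). The second probe set, 1448733_at, read 1061 and 1194 in the leukemic against 118 and 215 in the mature arrays. Again no arrays overlapped, with a log2 fold change of 2.70 (SE 0.34, interval 1.88 to 3.51, limma adjusted p = 0.0020). Both calls were kept in all alternatives run, 17 for the first probe set and 15 for the second, with highest adjusted p of 0.012 and 0.024. With hybridization control scaling the log2 fold changes were 1.13 and 1.43, the higher calls among the 19 subunit probe sets tested there. Relative to the median of all probe sets, 1417493_at was higher by 2.26 as deposited. Hybridization control scaling moves a gene and the median nearly alike, so the value of 2.20 with it is no further support.

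Pcgf2 (Mel18), the paralog that can take the place of Bmi1 in PRC1, was dim and not tested, with signals of 33.5 and 14.7 in the leukemic against 38.8 and 42.5 in the mature arrays. Both groups lay under the filter, so its difference from Bmi1 is not given.

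The E3 ligase pair of PRC1 was uneven. Ring1, the more dispensable ligase in development, has a single probe set and read 706 and 774 in the leukemic against 321 and 331 in the mature arrays. Both leukemic arrays were above both mature ones, the linear ratio of means was 2.27 and the log2 fold change was 1.14 (SE 0.27, interval 0.52 to 1.77, limma adjusted p = 0.016). The call was lost with equal array medians (0.83, limma adjusted p = 0.079), without leukemic replicate 1 (1.21, limma adjusted p = 0.11) and without leukemic replicate 2 (1.08, limma adjusted p = 0.16), and with hybridization control scaling the sign turned (-0.15, limma adjusted p = 0.65), a range of 0.0073 to 0.65 over 17 alternatives. Relative to the median of all probe sets Ring1 was higher by 0.95 as deposited. Hybridization control scaling moves Ring1 and the median nearly alike, so the value of 0.92 with it is no further support.

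Rnf2 (Ring1b), the ligase that carries most ubiquitin transfer to H2A, read 2614 and 2196 in the leukemic against 1630 and 2634 in the mature arrays at 1424873_at. The mature arrays lay on both sides of the leukemic ones, and the log2 fold change was 0.21 (interval -0.50 to 0.92, limma adjusted p = 0.63). At 1451519_at the signals were 1042 and 1085 against 664 and 869, a log2 fold change of 0.48 (interval -0.14 to 1.10, limma adjusted p = 0.20). The other 3 Rnf2 probe sets were dim and not tested. The log2 difference of Rnf2 minus Ring1 was 1.86 and 1.49 in the leukemic against 2.29 and 2.93 in the mature arrays. The groups did not overlap and were -0.94 apart (-1.26 to -0.61 over alternatives), with an exact permutation p of 0.33, the smallest possible. With Rnf2 1451519_at, also chosen after seeing the data, they were -0.67 apart.

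Cbx7, the chromodomain reader of PRC1, gave faint signals. At 1433557_at it read 117 and 93.0 in the leukemic against 88.9 and 40.9 in the mature arrays (log2 fold change 0.64, interval -0.51 to 1.79, limma adjusted p = 0.35). At 1449713_at it read 13.4 and 49.7 against 79.1 and 76.8 (-1.10, interval -2.47 to 0.27, limma adjusted p = 0.19). The probe sets point in opposite directions, neither was called, and the intervals leave changes of either sign, so no direction is given for Cbx7. The last probe set just inside the filter was Cbx7 1449713_at with a mean signal of 54.8, and the highest mean among the 7 outside it was 31.5.

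**Figure D3:**
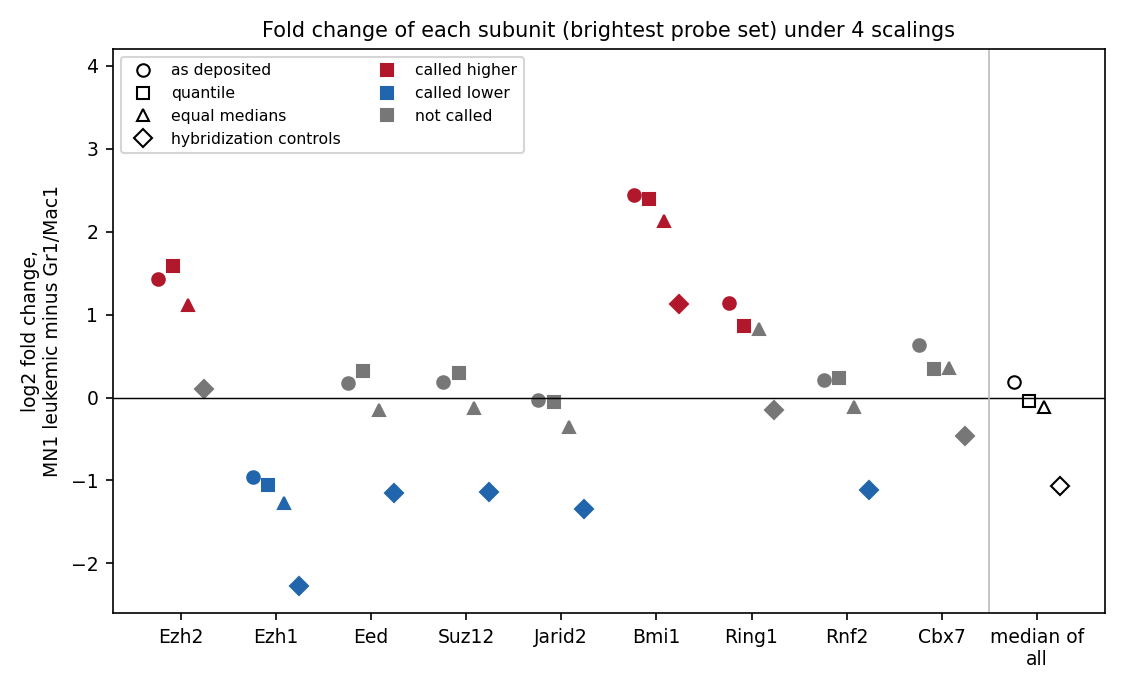
Log2 fold change (MN1 leukemic minus Gr1/Mac1) of the brightest probe set of each of the 9 subunits under 4 scalings of the arrays (marker shapes; colours show the limma call), with the median of all probe sets at the right. Bmi1 is called higher and Ezh1 lower under all 4. Ezh2 is not called with hybridization controls, and Ring1 is called neither with these nor with equal medians. Scaling to the hybridization controls moves the median of all probe sets from 0.19 to -1.07 and Eed, Suz12, Jarid2 and Rnf2 to lower calls.

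Over the 20 probe sets the median absolute log2 difference between replicates was 0.26 in leukemic and 0.46 in mature arrays. With hybridization control scaling, Suz12 1420020_at fell under the filter, and of the 19 probe sets tested 2 were called higher and 10 lower. Over the whole array, 1707 probe sets were called higher and 12950 lower of 27022 tested under it. The subunit counts are read beside this shift. Eed and the brightest Suz12 and Rnf2 probe sets lay within 0.10 of the median of all probe sets as deposited. That scaling could hardly change this, since it moves a gene and the median nearly alike.

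The other genes of the pathway were read from lists, each gene at its brightest tested probe set. In the lists of partners, antagonists and targets, 22 of 47 tested genes were called, 18 higher and 4 lower. The background for the brightest probe set of a gene is 26.1% higher and 15% lower. Of the 22, 16 had several tested probe sets, and 0 had a probe set called the opposite way. Among the called genes named below, Aebp2, Mtf2, Pcgf6, Mga, Auts2, Kdm6a, Kdm6b, Asxl1 and Pax6 each had tested probe sets that were not called. The 22 calls became 12 without leukemic replicate 1 and 7 without leukemic replicate 2.

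Of 7 tested PRC2 partners, 3 were higher and 1 was lower in leukemic marrow, with a median log2 fold change of 0.33. Rbbp7, a histone-binding subunit, was higher by 1.61 (limma adjusted p = 0.0035) and Mtf2, a Polycomb-like protein that binds unmethylated CpG islands, by 1.36 (limma adjusted p = 0.0049). Neither was called with hybridization control scaling, with 0.28 (limma adjusted p = 0.35) for Rbbp7 and 0.046 (limma adjusted p = 0.87) for Mtf2. Aebp2, a zinc finger cofactor, was higher by 0.73 (limma adjusted p = 0.045), but read -0.59 with hybridization control scaling. Phf1, another Polycomb-like protein, fell by 1.27 (limma adjusted p = 0.021), and Phf19, the remaining one of that family, was not called (-0.38). Counts with hybridization control scaling were 0 higher and 4 lower, beside 1707 higher and 12950 lower of all 27022 probe sets tested. The calls lost without leukemic replicate 1 were those of Phf1 (-1.32, limma adjusted p = 0.10) and Aebp2 (0.73, limma adjusted p = 0.23), and without leukemic replicate 2 those of Phf1 (-1.22, 0.15), Aebp2 (0.73, 0.25) and Mtf2 (1.32, 0.066). The call of Aebp2 was also lost without mature replicate 2 (0.67, limma adjusted p = 0.052). Over the alternatives the adjusted p ranged from 0.032 to 0.38 for Aebp2, from 9.8e-04 to 0.15 for Phf1 and from 0.0031 to 0.87 for Mtf2.

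PRC1 partners had 11 of 20 tested genes called higher, 1 lower and a median of 1.10. With hybridization control scaling 3 were higher and 8 lower, beside 1707 higher and 12950 lower of all 27022 probe sets tested. Pcgf6, a Bmi1 paralog found in a variant PRC1 with E2f6 and Mga, had the largest difference, at 1708 and 2032 in the leukemic against 109 and 75.2 in the mature arrays. Its log2 fold change was 4.14 (SE 0.30, limma adjusted p = 4.1e-04), and a second tested Pcgf6 probe set gave 1.41 and was not called. E2f6, a repressive E2F factor, was higher by 2.21 (limma adjusted p = 0.0025) and Mga, its partner in that complex, by 1.79 (limma adjusted p = 0.0042). The Cbx readers Cbx6 and Cbx2 were higher by 2.70 and 1.59 (limma adjusted p = 0.0017 and 0.013), and Auts2, a subunit of another variant PRC1, by 1.74 (limma adjusted p = 0.014). Yaf2, which like Rybp defines variant PRC1, fell by 1.18 (limma adjusted p = 0.010). Calls of Pcgf6, Cbx6 and E2f6 were kept in every alternative run. Without leukemic replicate 1 those of Auts2 (1.93, limma adjusted p = 0.064), Cbx2 (1.59, 0.097) and Yaf2 (-1.30, 0.053) were lost, and without leukemic replicate 2 those of Mga (1.82, limma adjusted p = 0.051), Auts2 (1.55, 0.15), Cbx2 (1.59, 0.11) and Yaf2 (-1.07, 0.11). Over the alternatives the highest adjusted p was 0.17 for Mga, 0.26 for Auts2, 0.41 for Cbx2 and 0.11 for Yaf2.

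Among 10 tested antagonists of Polycomb marks, 1 was higher and 2 were lower, with a median of 0.17. Kdm6b (Jmjd3), a demethylase that removes the PRC2 mark, was the largest of them, at 1388 and 1263 in the leukemic against 8707 and 6227 in the mature arrays. It fell by 2.46 (limma adjusted p = 0.0011), a call kept in every alternative run. Kdm6a (Utx), the X-linked demethylase of the same mark, was higher by 1.10 (limma adjusted p = 0.015), with the sign turned at -0.22 with hybridization control scaling. The other tested Kdm6a probe sets gave 0.55 and 0.22 and were not called. Asxl1, a partner of the H2A deubiquitinase Bap1, fell by 0.77 (limma adjusted p = 0.038). Its call was lost with quantile normalization (-0.68, limma adjusted p = 0.055), no filter (0.054), no trend (0.093), a replicate block (0.052) and without leukemic replicate 1 (-0.79, 0.20) or 2 (-0.76, 0.23). Its adjusted p ranged from 6.3e-04 to 0.23 over 17 alternatives. The call of Kdm6a was lost without leukemic replicate 1 (1.19, limma adjusted p = 0.084) or 2 (1.01, 0.15), and its adjusted p ranged from 0.010 to 0.48.

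Of 26 listed Polycomb targets, mostly developmental regulators, 24 had a probe set and 10 were bright enough to test. Of these 3 were called higher, none lower, and the median was -0.03. Cdkn2b, which encodes the cell cycle inhibitor p15, read 1037 and 2161 in the leukemic against 18.1 and 20.5 in the mature arrays (log2 fold change 5.43, limma adjusted p = 4.9e-04; 4.23 to 6.21 with the pseudocount). Its neighbour Cdkn2a, the classic Bmi1 target, was higher by 1.72 (limma adjusted p = 0.028), a call lost without leukemic replicate 2 (1.25, limma adjusted p = 0.26), without mature replicate 1 (1.56, 0.060), with no filter (0.067) and with hybridization control scaling (0.59, 0.31). Its adjusted p ranged from 0.016 to 0.31 over 15 alternatives. Pax6, an eye and brain regulator, read 248 and 1069 against 8.73 and 24.1 (4.09, limma adjusted p = 0.0047; 2.89 to 5.05 with the pseudocount), while its 2 other tested probe sets were not called. The mature means of Cdkn2b and Pax6 lay under 47.6, so both genes passed the filter only through the leukemic arrays where they are high, and the count of 3 is no support for a direction of the list.

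**Figure D4:**
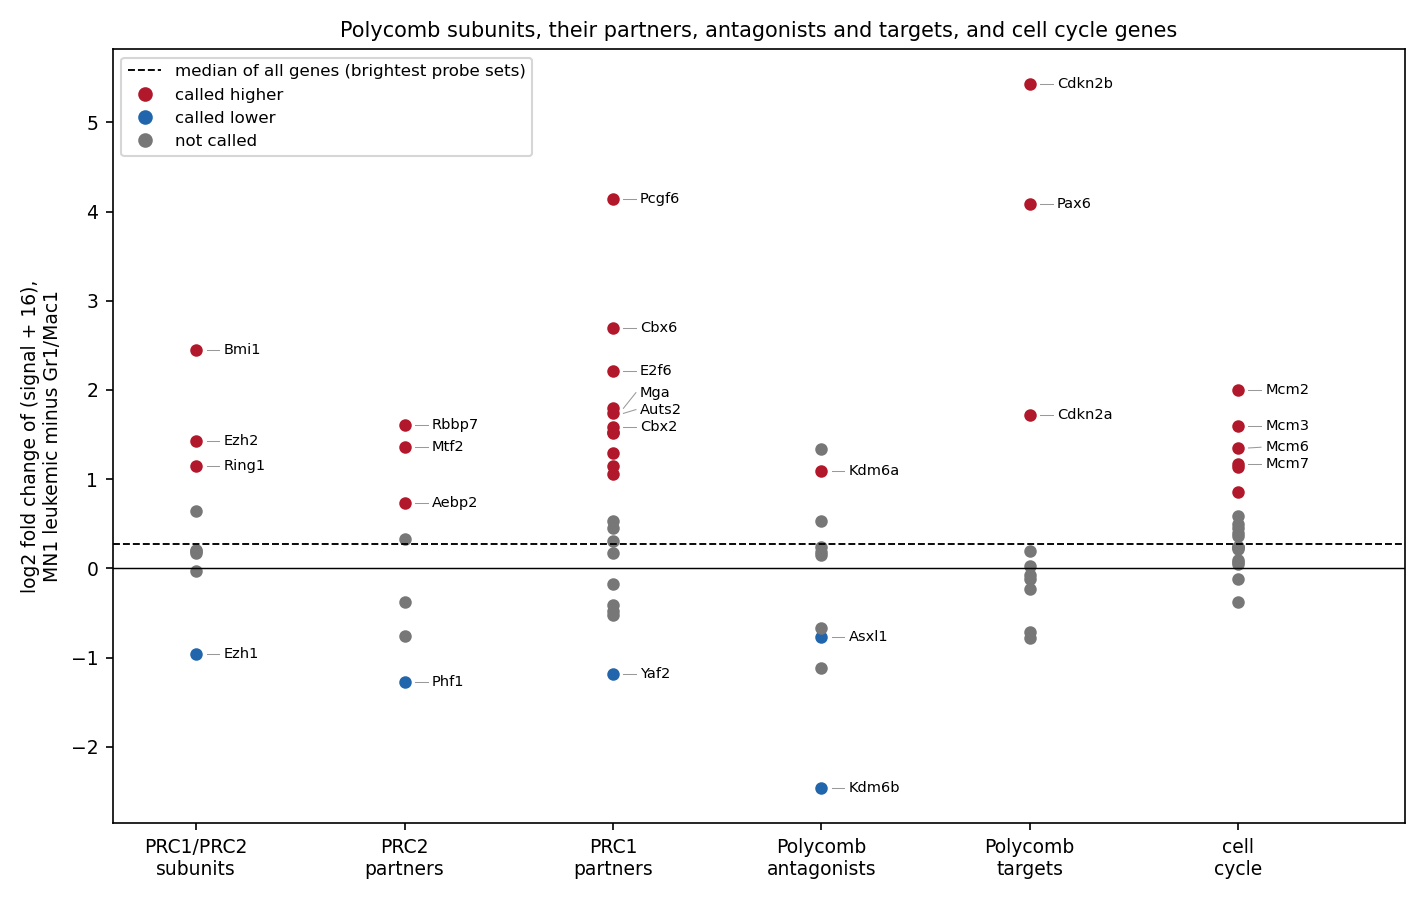
Log2 fold change (MN1 leukemic minus Gr1/Mac1, on the signal + 16 scale) of each tested gene of 6 lists at its brightest probe set, namely the subunits, PRC2 partners, PRC1 partners, antagonists, targets and cell cycle genes, coloured by the limma call, with the largest called genes named and the median of all genes, 0.28, as a dashed line. Called PRC1 partners lie mostly above the line (11 higher, 1 lower, but 3 and 8 with hybridization control scaling). Of all 27022 probe sets, that scaling called 1707 higher and 12950 lower. Among the genes drawn, Kdm6b is the lowest at -2.46 and Cdkn2b the highest at 5.43.

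Of 20 tested cell cycle genes, 6 were called higher and 0 lower (median 0.38), near the background of 26.1% higher and a median of 0.28. With hybridization control scaling 0 were higher and 12 lower, beside 1707 higher and 12950 lower of all 27022 probe sets tested. As deposited, the other 14 were not called. The called genes include the replication licensing genes Mcm2 (1.99), Mcm3 (1.59), Mcm6 (1.35) and Mcm7 (1.17, but -0.16 with hybridization control scaling). The calls of Mcm6 and Mcm7 were lost without leukemic replicate 1 (1.36 and 1.12, limma adjusted p = 0.054 and 0.12) or 2 (1.34 and 1.22, limma adjusted p = 0.067 and 0.11), and their highest adjusted p over alternatives was 0.94 and 0.67. The proliferation marker Mki67, chosen after its values were seen, was at 0.21 (limma adjusted p = 0.57).

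Markers of other cell types differed between the groups. All 8 stem and progenitor markers were higher, with a summed signal of 25503 to 27505 in leukemic and 1145 to 1481 in mature arrays. All 5 tested mast cell and basophil markers were higher (45303 to 59246 against 312 to 518) and 5 of 6 erythroid markers (27865 to 44366 against 4391 to 8693). All 7 monocyte markers were lower (6824 to 8829 against 33515 to 58633) and 5 of 10 neutrophil markers, whose sums overlapped (234054 to 398671 against 317856 to 398792). Itgam, which encodes the CD11b of the gate, read 584 and 306 in leukemic against 4288 and 4407 in mature arrays. The other neutrophil markers called lower were Csf3r (-2.55), Cxcr2 (-2.65), Mmp8 (-1.56) and Mmp9 (-2.52). Those not called were S100a8 (0.30), S100a9 (0.21), Ngp (0.42), Camp (0.03) and Ltf (-0.34), which were bright in both groups. Of 6 megakaryocyte markers, 2 were higher, Vwf (3.23) and Itga2b (3.05), and 0 lower (3048 to 3445 against 912 to 927). Of 5 tested B cell markers limma called 0 (836 to 931 against 557 to 818). The 3 at an unadjusted limma p under 0.05 went in opposite directions, Vpreb1 (1.84) and Igll1 (1.14) higher and Ms4a1 (-1.80) lower. Of 2 tested T and NK cell markers Cd3d was lower (-3.45) and Cd8a was not called (195 to 307 against 544 to 548). The leukemic means lay under 47.6 for 4 of 7 B cell markers (Cd79a, Ebf1, Ms4a1, Pax5) and 5 of 6 T and NK cell markers (Cd3d, Cd3e, Cd3g, Cd4, Ncr1). They lay above it for Cd79b (353), Igll1 (212), Vpreb1 (206) and Cd8a (147), none of them called. The mature means lay under 47.6 for the stem and progenitor markers Sox4 and Mecom, for Cma1, Cpa3 and Fcer1a of the mast cell list, and for Vwf. These genes passed the filter only through the leukemic arrays where they are high, so their calls are no support for a direction of these lists. Cd3d and Ms4a1 passed only through the mature arrays. The part of these cell types and of the cell cycle genes in the subunit values was not tested.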

How the data were processed

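Total RNA of 4 mouse bone marrow samples was read on single-colour arrays. The deposited intensity values are MAS5 signals that the authors made in GCOS 1.3.0, as the submitters' processing notes give it, and the detection calls are not used here. The trimmed mean (2% at each end) was 500.003 or 500.004 in every array, so each array had been scaled before deposit. The number of arrays limits the precision.

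Gene symbols came from the platform annotation (34945 probe sets with 1 symbol, 932 with several, 9160 with none). After removing 64 control probe sets from 45101 and the 40% with the lowest mean signal, log2(signal + 16) of 27022 probe sets was fitted with limma 3.58.1 in R 4.3.3 (lmFit, eBayes with a trend, two-sided, Benjamini-Hochberg), with 2 residual degrees of freedom, 7.04 after moderation. Probe sets were tested singly, so that each one of a subunit could be reported. The fit was tested on simulated data.

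The subunits and gene lists were chosen with earlier results of these data known. The named genes are all subunit probe sets, the up to 6 largest called genes in each direction of each Polycomb list, up to 4 of the cell cycle and marker lists, and the genes of the paralog pairs. Paralog pairs were compared with an exact permutation test. Alternatives changed the pseudocount (1, 64), the filter (none, 60%), the scaling, the use of several probe sets, the variance model, a replicate block, a minimum of 2-fold and each array in turn. Figures used matplotlib 3.10.9.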

Additional observations from a re-analysis of the deposited data

How the results depend on the processing

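Scaling to the hybridization controls gave 14657 changed probe sets of 27022, 1707 higher and 12950 lower, against 9428 as deposited. Under that scaling 2 of 19 tested subunit probe sets were higher and 10 lower, against 5 and 1 of 20. Under it the log2 fold change turned sign for Ring1 (-0.15), Eed (-1.16), Suz12 1420021_s_at (-1.13), 1427253_s_at (-1.11), 1449661_at (-0.82) and 1452364_at (-0.58), Rnf2 1424873_at (-1.11) and 1451519_at (-0.83), Ezh1 1418290_a_at (-0.50), Cbx7 1433557_at (-0.46), Aebp2 (-0.59), Kdm6a (-0.22) and Mcm7 (-0.16). Equal array medians turned Suz12 1420021_s_at (-0.13) and 1427253_s_at (-0.11), Rnf2 1424873_at (-0.11) and Eed (-0.15). Both change all signals of an array by 1 factor.

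With fewer features tested, the brightest probe set per gene gave 5375 changed genes and 3 subunits higher, and averaging the probe sets of a gene gave 5276, 3 higher and 0 lower, with Cbx7 at -0.23. The lower count, 1, was also 0 with no trend. It was 0 without suffixes x, s and a, which drops Ezh1 1449023_a_at by its name. With at least 2-fold it was 0 because the log2 fold change of that probe set was -0.96. These last settings could not have kept the call.

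Leaving out each array gave 3470 to 10232 changed probe sets (5219 without leukemic replicate 1, 3470 without leukemic replicate 2), 2 to 7 subunit probe sets higher, 0 to 1 lower and 7 to 22 listed genes called. The 2 and the 7 listed genes came without leukemic replicate 2, and the 7 higher subunit probe sets without mature replicate 2; without leukemic replicate 1 the counts were 3 and 12. Over these, log2 fold changes ran from -0.17 to 1.40 for Ezh1 1418290_a_at, -0.17 to 0.55 for Suz12 1420021_s_at, -0.23 to 0.64 for Suz12 1427253_s_at and -0.14 to 0.55 for Rnf2 1424873_at, with the low ends without mature replicate 1. They ran from -0.24 to 0.18 for Jarid2 1422698_s_at (0.17 without mature replicate 1) and -1.53 to 0.013 for Jarid2 1450710_at, with the high ends without leukemic replicate 1.

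The replicate numbers do not pair the arrays (correlation of deviations -0.04), and the replicate block gave 9822 changed probe sets. The differences of Ezh2 minus Ezh1 and Rnf2 minus Ring1 kept their direction in all alternatives run. These include another probe set (0.81 and -0.67), chosen after seeing the data. Scalings by a factor common to an array could hardly change these differences.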
